A study of Mus musculus with 6 samples.

Results

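Ribosomal protein genes and their pseudogenes were followed through lists of DNA variants from mice that carry the P95H change of the splicing factor Srsf2. Members were the genes whose name begins with Rpl, Rps, Mrpl or Mrps and a digit, or with Rpsa or Rplp, in any list, intergenic annotations left out. They numbered 276 of 24223 gene names. Of these, 133 were pseudogenes (a name that holds -ps), 39 and 27 were genes for cytosolic large and small subunit proteins, 43 and 23 were genes for mitochondrial large and small subunit proteins, and 11 were Rps6k kinases or Rps19bp1, which are no ribosomal proteins but meet the name pattern. A site inside a transcript was present for 149 members, of 18232 such genes in all. The other 127 members were named only for sites upstream or downstream of them.

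The study sequenced captured exons of genomic DNA from whole bone marrow and from matched ear tissue of 3 C57BL/6 mice, 6 samples in all. Animals 54 and 108 were male and animal 136 was female. All carried Srsf2P95H/+, had received tamoxifen in vivo, and were killed 50 to 60 weeks after it, when moribund. The labels and the design text differ on the Cre driver (R26-CreERT2 in all animals by the labels, hScl-CreERT with R26eYFP in 1 animal by the design text), and no comparison uses it. No mouse without the Srsf2 change was analysed here, and DNA holds no marker of cell type. A base of Srsf2 codon 95 (chromosome 11, 116852646) was changed in all 6 samples, in 23 of 48, 11 of 57 and 27 of 55 reads in marrow and 34 of 81, 25 of 62 and 28 of 45 reads in ear of animals 54, 108 and 136. Taken alone, this base was annotated as a change of proline to glutamine. The lists held 24915 to 79759 sites, with a median of 18 to 31 reads per site.

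Ribosomal proteins form the large and the small subunit of the ribosome together with ribosomal RNA. The cytosolic set is encoded by genes that nearly every cell uses at a high level, and the mitochondrial set (Mrpl and Mrps) serves the separate ribosomes of mitochondria. Mammalian genomes also hold many processed pseudogenes of the cytosolic set, which are reverse-transcribed mRNA copies without introns, often with a tail of A bases, inserted at other places. A short read from one copy can match another, which lowers the mapping quality, a Phred-scaled measure of how uniquely a read is placed. Blood formation is sensitive to the dose of several of these proteins, and loss of 1 copy of genes such as RPS19, RPL5 and RPL11 causes Diamond-Blackfan anaemia in humans.

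Some variants that both tissues shared lay within 250 bases before an annotated start of a member. Of the 169 RefSeq promoter windows of members (250 bases before to 50 after a start, GRCm38.p6), 34 sites lay in one and 8 of them were called in both tissues of an animal. At 3004 of 3004 single-base sites in such windows over all genes, the reference base of the lists was the RefSeq base. Of the 8, 5 lay upstream of the start of their window. The 4 of these with at least 27 reads in every listed sample are shown from RefSeq. They place a change common to marrow and ear upstream of a start of the set. The RefSeq span of Mrpl22 begins at 58170043, so its site precedes a later start of the gene. The Mrpl47 site was also annotated inside a transcript. The capital marks the changed base, and positions count from -1, the base before the start.
Mrpl22, chr11:58171604-58171663, plus strand: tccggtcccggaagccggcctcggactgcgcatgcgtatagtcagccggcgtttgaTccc
Mrpl52, chr14:54426849-54426908, plus strand: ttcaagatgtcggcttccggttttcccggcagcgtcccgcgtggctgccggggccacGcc
Rpl11, chr4:136053490-136053549, minus strand: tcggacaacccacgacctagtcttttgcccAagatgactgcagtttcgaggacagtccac
Mrpl47, chr3:32736960-32736989, minus strand: gagtgagggcagcggCccgttcctgcgagc

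At the Mrpl22 position, the change T-4A (reference base, position, changed base) had 49 of 84 reads in the marrow and 44 of 84 in the ear of animal 108, and by 43 of 91 in the marrow and 37 of 68 in the ear of animal 136. The Mrpl52 change, G-3A, had 107 of 206 reads in the marrow and 99 of 212 in the ear of animal 108. The Rpl11 change, A-126G, had 12 of 27 reads in the marrow and 18 of 39 in the ear of animal 54. These fractions ran from 44.4 to 58.3%, and no other animal listed the Mrpl52 or the Rpl11 change. The Mrpl47 change, C-219T, had 31 of 60 reads in the marrow and 64 of 100 in the ear of animal 54, and 42 of 81 in the marrow and 55 of 93 in the ear of animal 108.

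Members took a like share of every list, and the animals differed in which class held the sites. Sites annotated to a member numbered 379 in the marrow and 547 in the ear of animal 54, 566 and 466 for animal 108, and 198 and 212 for animal 136, which was 0.693 to 0.876% of each list. Sites inside a member numbered 230 in the marrow and 336 in the ear of animal 54, 269 and 227 for animal 108, and 71 and 92 for animal 136. Animal 136 had the fewest in both tissues, and its lists were also the shortest and the shallowest, with medians of 19 reads in marrow and 18 in ear.

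Pseudogenes held 16 of the sites inside in the marrow and 21 in the ear of animal 54, 69 and 57 for animal 108, and 12 and 15 for animal 136. Genes for cytosolic large subunit proteins held 90 in the marrow and 117 in the ear of animal 54, against at most 39 in any sample of the other animals. Genes for mitochondrial large subunit proteins held 24 in the marrow and 67 in the ear of animal 54, 83 and 69 for animal 108, and 26 and 35 for animal 136. The Rps6k and Rps19bp1 group held 77 in the marrow and 101 in the ear of animal 54, of which 72 and 87 lay in a single gene, the kinase gene Rps6ka1.

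**Figure D1:**
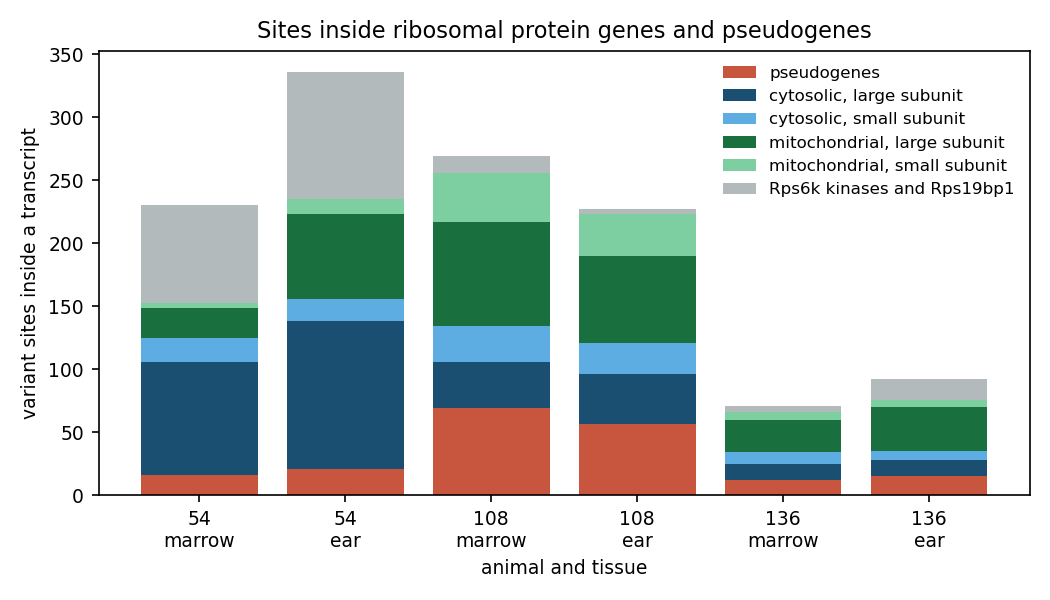
Number of variant sites inside members (vertical axis) in marrow and ear of each animal, with a stacked colour for each class. Animal 108 has the tallest pseudogene blocks, 69 and 57 sites, and animal 54 the tallest block of cytosolic large subunit genes, 90 and 117 sites.

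Cytosolic ribosomal protein genes carried more shared sites per length than the whole of coding genes in 3 of 3 animals, but a smaller share of the genes had any. Of 88 such genes, 14.8%, 10.2% and 3.41% had a site in both tissues of animals 54, 108 and 136, against 18.2%, 22.5% and 13.3% of all coding genes. Per kb of RefSeq span, their sites called in both tissues numbered 0.276, 0.144 and 0.0210 in animals 54, 108 and 136. The values were 0.0238, 0.0753 and 0.0168 per kb in mitochondrial ribosomal protein genes and 0.0384, 0.177 and 0.0230 per kb in pseudogenes, against 0.0275, 0.0431 and 0.0102 per kb in all 21900 protein-coding genes. Capture took exons, and the median RefSeq span was 3179 bases in cytosolic ribosomal protein genes and 535 in pseudogenes, against 17146 in all coding genes. Sites of the ribosomal protein sets were counted by annotation inside a transcript, those of all coding genes by position in the RefSeq span. In animal 54, Rpl11 and Rpl3 held 24 and 20 of the 92 shared sites of cytosolic genes. Animal 136 had 7 such sites in 3 genes. The part of counting, of span and of capture in these densities was not tested.

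Reads at pseudogene sites were placed less uniquely than reads at gene sites in 6 of 6 samples. The median mapping quality was 28, 33, 32, 31, 26.5 and 27 at pseudogene sites in marrow and ear of animals 54, 108 and 136, in that order, against 41 or 42 at gene sites in each sample. The highest mapping quality in the lists was 42. The difference of medians, pseudogenes minus genes, was -12.3 ± 2.61 (SD, n = 3 animals, tissues averaged). The range over samples for all other pseudogenes of the lists was 34 to 35, above the ribosomal protein pseudogenes in 6 of 6 samples. With 3 animals no paired exact test could go below p = 0.25, so this difference and those below are given without a test.

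Pseudogene sites were also deeper. The median depth was 78.5 reads in the marrow and 61 in the ear of animal 54 at pseudogene sites, 158 and 163 for animal 108, and 90.5 and 32 for animal 136. Gene sites had 39 and 45 reads in animal 54, 28.5 and 32.5 for animal 108, and 21 and 18 for animal 136. The ratio of medians was 3.34 ± 1.82 (SD, n = 3). All other pseudogenes of the lists were deep too, with medians of 55.5 to 85 reads, against 18 to 31 in all other genes. Ribosomal protein pseudogenes were deeper than the other pseudogenes in 4 of 6 samples. Many gene sites lay in introns next to captured exons. Against exonic gene sites only, a comparison added after the values were seen, the ratio was 2.12 ± 1.25 (SD, n = 3), and pseudogenes were deeper in 5 of 6 samples, the exception being the ear of animal 54 with 61 reads at pseudogene sites and 99 at exonic gene sites.

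In animal 136 the sign of the difference in variant fraction, the share of reads with the variant base, depended on including shallow sites. In animals 54 and 108 pseudogenes were lower with and without shallow sites. The median fraction at pseudogene sites was 35.4% in the marrow and 32.7% in the ear of animal 54, 42.1 and 41.3% for animal 108, and 34.9 and 26.4% for animal 136. At gene sites it was 45.0 and 43.8% in animal 54, 46.3 and 47.3% for animal 108, and 28.6 and 23.5% for animal 136. Over all sites pseudogenes were lower in 4 samples and higher in 2, with a mean difference of -3.62 points ± 7.60 (SD, n = 3), within the spread between animals, and of -0.237 points without animal 54. At sites with at least 20 reads pseudogenes were lower in 6 of 6 samples, with a mean difference of -8.36 points ± 3.39 (SD, n = 3), larger than that spread. There the difference was -10.2 and -14.4 points in marrow and ear of animal 54, -5.04 and -7.24 for animal 108, and -12.3 and -1.09 for animal 136, whose values rest on 10 and 12 pseudogene sites. At a mapping quality of at least 30, with shallow sites included, the mean difference was -0.728 points ± 8.96 (SD, n = 3). Restricted to sites called in both tissues of an animal, pseudogene medians were 35.5 and 39.3% in marrow and ear of animal 54, 45.4 and 41.3% for animal 108, and 35.5 and 39.1% for animal 136. The gene medians at such sites were 47.4 and 46.5% in animal 54, 48.3 and 50.3% for animal 108, and 47.4 and 46.2% for animal 136, above the pseudogenes in 6 of 6 samples. Without these restrictions, all other pseudogenes had medians of 44.5 to 47.3%, above the ribosomal protein pseudogenes in 6 of 6 samples.

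**Figure D2:**
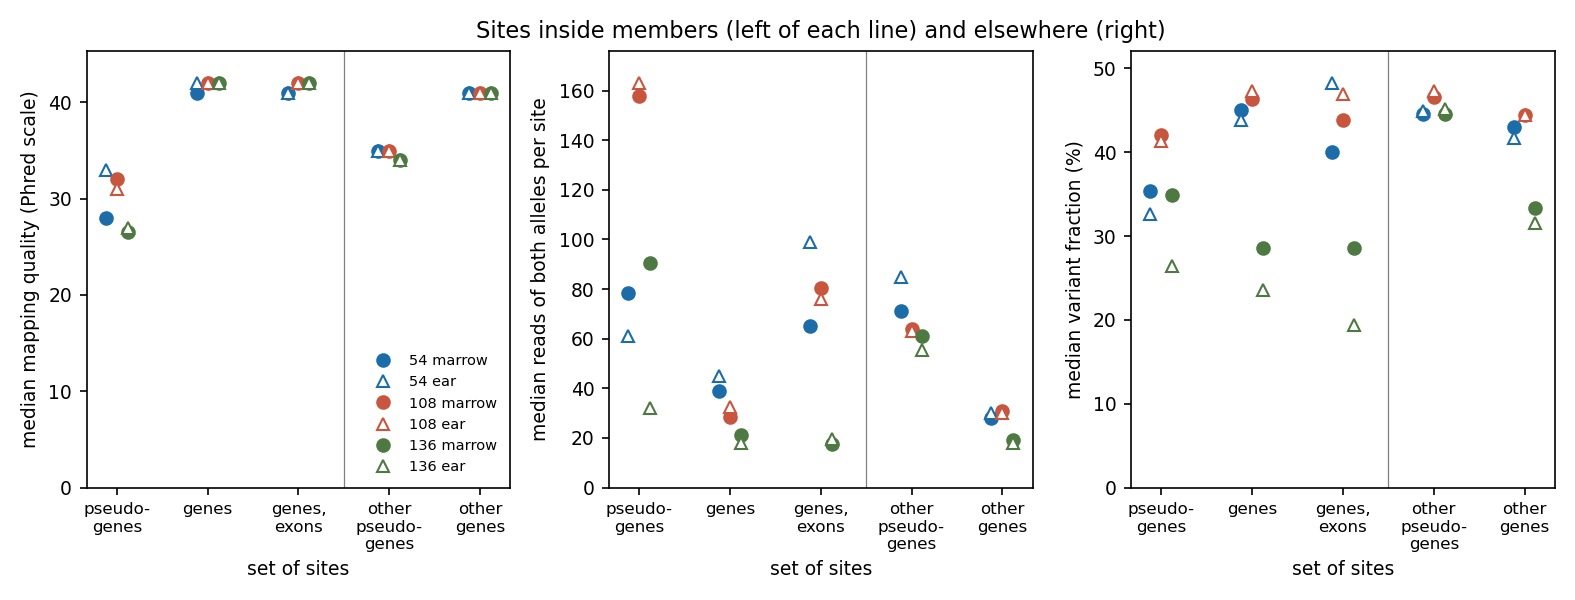
Median mapping quality (left), median reads per site (middle) and median variant fraction in percent (right) at sites inside pseudogenes and genes of the set, exonic sites of those genes, and all other pseudogenes and genes of the lists. Each point is 1 sample, filled circles are marrow, open triangles are ear, and colours are animals; pseudogenes have the lowest mapping quality, 26.5 to 33, in every sample.

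The share of sites called in both tissues of an animal was higher in pseudogenes than in genes in 2 animals and lower in 1. The shares were 11 of 26 pseudogene sites in animal 54 (42.3%, 95% Clopper-Pearson interval 23.4 to 63.1), 47 of 79 in animal 108 (59.5%, 47.9 to 70.4) and 7 of 20 in animal 136 (35.0%, 15.4 to 59.2). For genes they were 187 of 342 (54.7%, 49.2 to 60.0), 124 of 246 (50.4%, 44.0 to 56.8) and 27 of 109 (24.8%, 17.0 to 34.0). The intervals, which cover counting error only and take sites as independent, overlapped in each animal. The shares differed on average by 2.32 points ± 12.7 (SD, n = 3). The sign of that difference turned in several settings, such as -2.52 at a depth of at least 20.

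Among single-base changes called in both tissues, transitions made up 31 of 53 in pseudogenes (58.5%, 44.1 to 71.9) and 173 of 244 in genes (70.9%, 64.8 to 76.5), again with overlapping intervals. All other genes had 67.3% and all other pseudogenes 65.3%. Pseudogene calls with a variant fraction of at least 90% numbered 8, and all 8 were insertions or deletions at 2 to 12 reads. They lay in Rpl35a-ps2, Rpl31-ps8, Rpl31-ps25 and Rpl7a-ps12.

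SnpEff annotated 47 of 190 pseudogene calls (24.7%) to the edge of an exon, in 12 pseudogenes and at 27 of 100 different sites, against 213 of 6883 calls (3.09%) in all other pseudogenes. For 39 of the 47 the transcript has a single exon, so that the edge is an end of the pseudogene. The change n.434C>A of Rpl31-ps8 had 5 of 21 reads in the marrow and 8 of 41 in the ear of animal 54, 6 of 36 in marrow of animal 108 and 9 of 31 in ear of animal 136. In Rpl3-ps1 on chromosome X, n.1292T>A had 12 of 43 reads in marrow of animal 54, 8 of 43 in ear of animal 108 and 19 of 82 in ear of animal 136. Neither change was listed in both tissues of all animals. Edge sites also included n.495G>A of Rps23-ps and n.700C>A of Rpl15-ps3, which were in all 6 samples at 35.5 to 59.6% and 35.5 to 48.6% of reads.

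Sites of 38 pseudogenes lay in the lists of all variants, and 22 of the 38 had at least 1 site in both tissues of an animal. In 19 of the 22 this was in a single animal, 15 in animal 108 and 4 in animal 54, and in 3 it was in every animal. Of the 102 genes with a site inside, 34 had a site in both tissues, 25 of them in a single animal, 6 in a pair of animals and 3 in all. The 3 pseudogenes seen in every animal were Rpl19-ps1, Rps23-ps and Rpl15-ps3, and the 3 genes were Rpl32, Rpl26 and Rps23.

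Rpl19-ps1 (ENSMUSG00000064281, chromosome 1), a copy of the gene for a large subunit protein, had the most calls, 31 at 7 sites, with 3 to 7 in each sample. Its change n.141T>C had 52 of 88 reads in the marrow and 82 of 143 in the ear of animal 54, 74 of 117 and 74 of 123 for animal 108, and 74 of 112 and 46 of 84 for animal 136. Its change n.51G>C had 20 of 77 and 23 of 124 reads in marrow and ear of animal 54, 27 of 106 and 28 of 114 for animal 108, and 27 of 136 and 14 of 53 for animal 136. The first change thus lay above 50% in all 6 samples and the second at or below 26.4%. The median mapping quality of its calls was 23. Rps23-ps, a copy of a small subunit protein gene, had no other site than n.495G>A, whereas Rpl15-ps3 had 3 sites.

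Rpl31-ps5 on chromosome 5 and Rpl36a-ps1 on chromosome 14 were the clearest cases of a single animal. Each had 8 sites in marrow and the same number in ear of animal 108 and no site in animals 54 and 136. In Rpl31-ps5 the fractions ran from 40.2 to 52.4% in marrow and from 34.9 to 55.4% in ear. In Rpl36a-ps1 they ran from 39.2 to 48.6% in marrow and from 33.1 to 60.0% in ear. Rpl31-ps15 (8 and 4 sites), Rpl21-ps7 (5 and 4), Rpl21-ps10 (5 and 3), Rpl23a-ps4 (3 and 3), Rpl31-ps18 (3 and 2), Rpl15-ps2 (2 and 2) and Rpl23a-ps2 (2 and 2) were likewise listed in marrow and ear of animal 108 and in no other animal. At Rpl17-ps5 the only change, n.300G>A, had 145 of 405 reads in marrow and 135 of 409 in ear of that animal, at a mapping quality of 11 to 17.

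Rps24-ps3 lies on chromosome X, of which a male has 1 copy. Its changes n.360T>G and n.380T>C had 140 of 241 and 129 of 221 reads in marrow of the male animal 54, at a mapping quality of 23, and were in no other list. Of the 6 pseudogene calls on chromosome X in males, 1 had a fraction of at least 90%, that of Rpl7a-ps12 with 5 reads in ear of animal 108. None of the 10 calls in genes of the set and none of the 243 in all other pseudogenes there did. In all other genes there, 47 of the 1566 calls did.

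**Figure D3:**
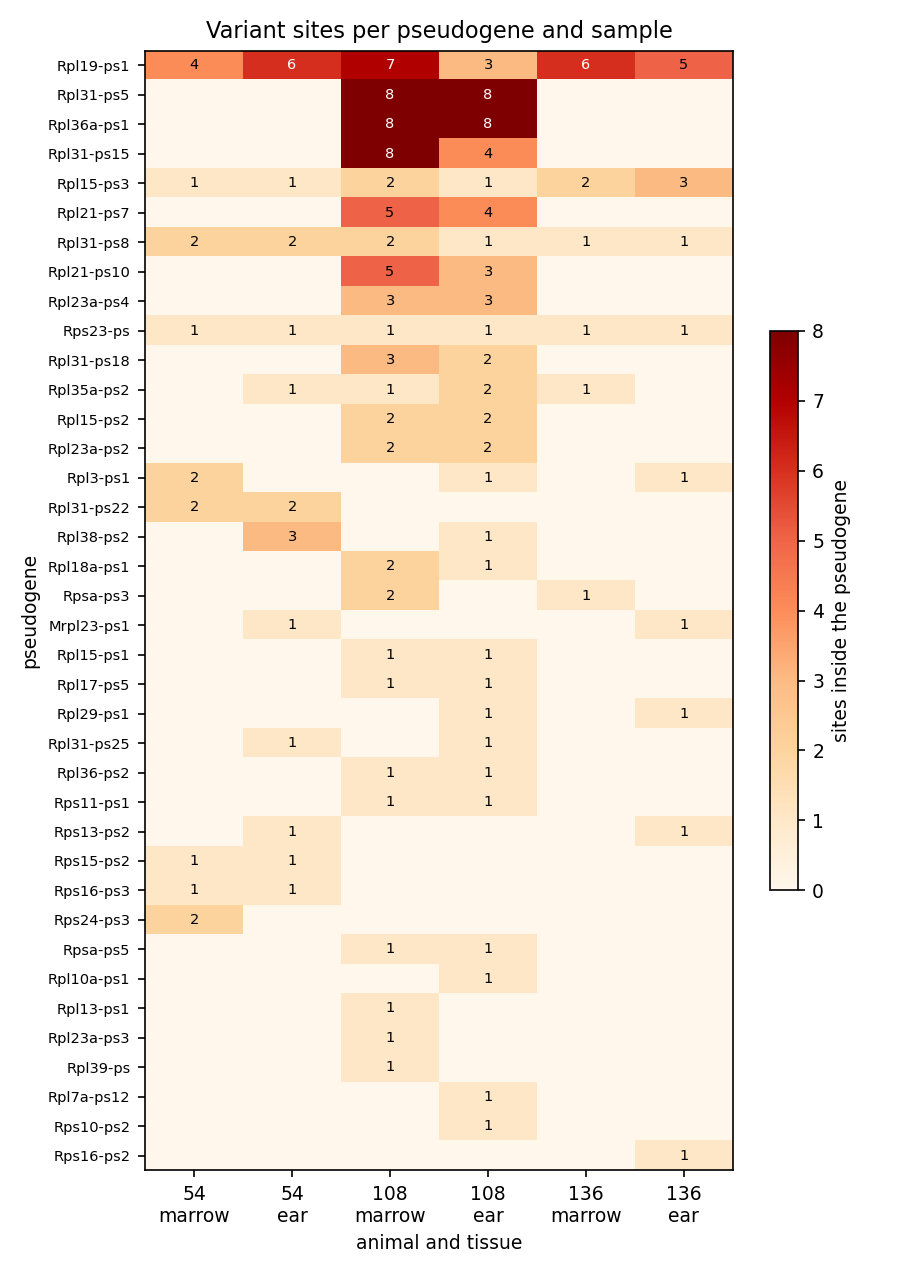
Number of variant sites inside each of the 38 pseudogenes (rows, by total) in marrow and ear of each animal (columns); darker cells hold more sites, up to 8. Rpl19-ps1, Rpl15-ps3, Rpl31-ps8 and Rps23-ps are filled in all 6 columns, whereas rows such as Rpl31-ps5 and Rpl36a-ps1 are filled in the columns of animal 108 alone.

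In animal 108, and for genes also in animal 54, members with shared sites lay in windows that held many shared sites, whereas the medians were close to each other in animal 136. In animal 108, the fixed 1 Mb window that holds each of the 18 pseudogenes with a site in both tissues held a median of 67 shared single-base sites, against 2.5 for the 20 without. For genes the medians were 68 with and 4 without in animal 108, and 92 with and 3 without in animal 54. In animal 54 the 7 pseudogenes with shared sites had a median of 3, against 2 for the 31 without. In animal 136 the medians were 5 against 1 for pseudogenes and 4.5 against 3 for genes. The window counts include the members' own sites. The window of Rpl31-ps5 held 0, 41 and 0 shared sites in animals 54, 108 and 136, and that of Rpl36a-ps1 held 2, 34 and 2. Rpl31-ps15 and Rps23-ps lie in the same window, with 1, 278 and 1. Rpl19-ps1 had 111, 130 and 116 in animals 54, 108 and 136.

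**Figure D4:**
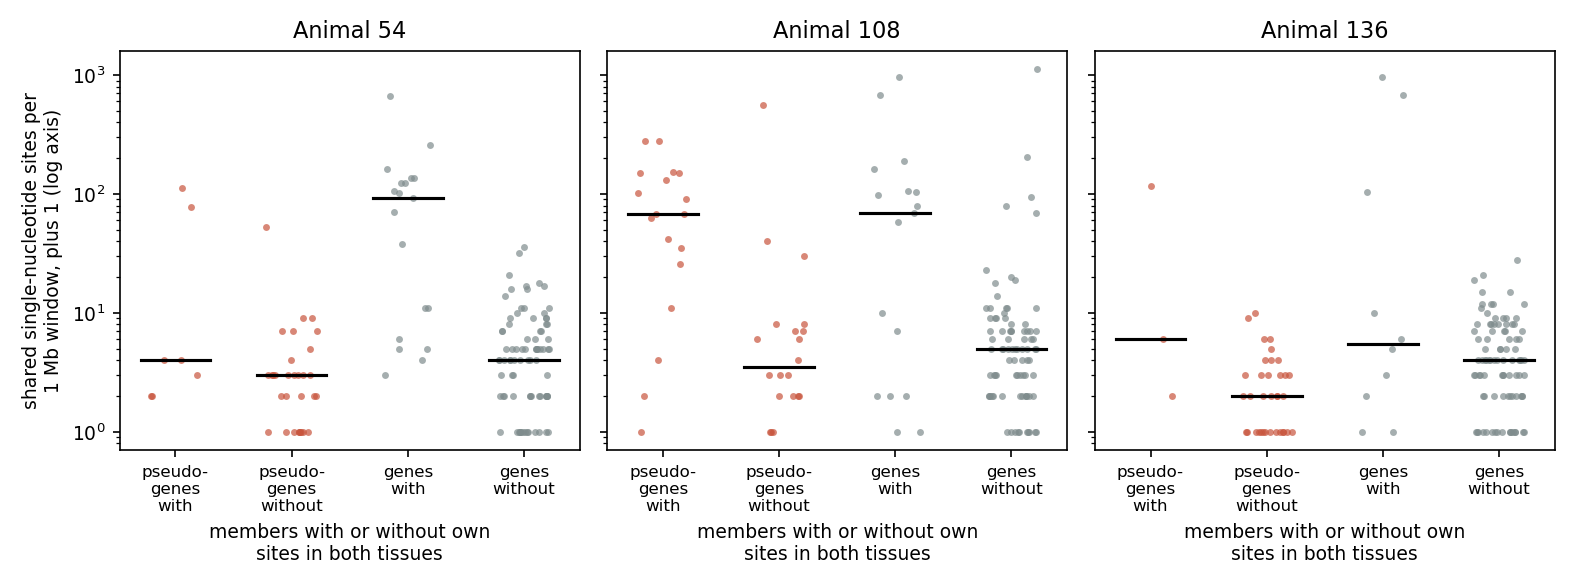
Shared single-base sites, plus 1, in the 1 Mb window of each member (log axis), split by whether the member itself had a site in both tissues; each point is a member, red for pseudogenes and grey for genes, and black bars are medians. In animal 108 the medians are 67 against 2.5 for pseudogenes and 68 against 4 for genes.

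Genes of the set fell into the same animal-wise blocks. In animal 54, Rps6ka1 had 72 sites in marrow and 87 in ear, Rpl11 26 and 30, Rpl3 23 and 22, Rpl34 12 and 22, Rps29 12 and 12, and Rpl22l1 11 and 11. None of these 6 genes had a site in both tissues of another animal. In animal 108, Mrps35 had 31 sites in marrow and 28 in ear, Rplp1, the gene of an acidic stalk protein, had 23 and 22, Mrpl44 had 18 and 16, and Rps25 16 and 11. Mrpl47 had shared sites in animals 54 and 108, 21 in each, and Mrpl22 and Mrpl55 had them in animals 108 and 136. Within these blocks the gap between the median fractions of marrow and ear varied: in Rpl11 of animal 54 it was 45.2% in marrow and 43.4% in ear, in Mrpl44 of animal 108 53.0 and 48.6%, and in Rps29 of animal 54 58.5 and 57.6%. Wider gaps were those of Mrpl47 in animal 108 with 45.8% in marrow and 56.3% in ear, Rps25 with 46.0 and 52.9%, and Rplp1 with 47.6 and 53.8%.

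Few sites that both tissues shared changed a cytosolic ribosomal protein. Of 15 coding or splice sites called in both tissues of an animal in genes for cytosolic ribosomal proteins, 1 altered the protein by its annotation (6.67%, 0.169 to 31.9). In genes for mitochondrial ribosomal proteins 5 of 18 did (27.8%, 9.69 to 53.5), against 34.0% of 14178 such sites in all other genes (33.2 to 34.8). The 11 sites in the Rps6k and Rps19bp1 group altered none. The interval of the cytosolic genes lay below that of all other genes, but sites of a block such as Rpl3 or Rpl34 come from the same stretch of 1 animal and are not independent, so no test was made.

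The exception among cytosolic genes was Rpl22l1 (ENSMUSG00000039221, chromosome 3), which encodes a paralogue of the large subunit protein Rpl22. An insertion annotated to a splice acceptor, c.10-3_10-2insGT at position 28806496, had 40 of 75 reads in marrow (53.3%) and 48.5% of reads in ear of animal 54. The silent sites included p.Ser100Ser of Rpl11 (208 of 478 reads in marrow, 252 of 636 in ear of animal 54), p.Lys52Lys of Rpl35a (104 of 186 and 129 of 270) and p.Val106Val of Rpl34 (142 of 263 and 195 of 391). In animal 108, p.Asn45Asn of Rps25 had 38 of 89 reads in marrow and 40 of 87 in ear.

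The shared sites annotated as altering mitochondrial ribosomal proteins lay in 3 genes. In Mrpl22 (ENSMUSG00000020514), p.Ala4Thr on chromosome 11 at 58171695 had 63 of 111 reads in the marrow and 59 of 112 in the ear of animal 108, and 59 of 124 and 37 of 77 for animal 136. This site and the change 4 bases before a start of the gene, shown above, were found in the same animals. In Mrpl55 (ENSMUSG00000036860), p.Leu26Phe had 106 of 207 reads in the marrow and 93 of 194 in the ear of animal 108, and 125 of 256 and 78 of 160 for animal 136. A change at the acceptor of its first intron, c.-58-2A>G, had 40 of 75 and 33 of 63 reads for animal 108, and 41 of 88 and 30 of 62 for animal 136. That change was annotated on another transcript, before the coding sequence, and counts as altering by its HIGH impact alone. In Mrps35 (ENSMUSG00000040112), p.Cys216Tyr had 30 of 66 reads in the marrow and 13 of 42 in the ear of animal 108, and p.Ile293Val had 44 of 79 and 33 of 60. All 5 were listed in both tissues of each animal that had them.

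Coding and splice sites that no animal had in both tissues altered the protein by annotation in 14 of 27 cases in members (51.9%), against 50.9% in all other genes. The 14 include the Rpl28 acceptor changes below, which lie before the coding sequence, and an acceptor change in a noncoding transcript of Rps18. In Rps19, whose human counterpart is the gene most often mutated in Diamond-Blackfan anaemia, 4 changes within residues 148 to 155 of a 212-residue product were listed in marrow of animal 136 and in no other sample. p.Glu149Gly and p.Arg150Gly each had 4 of 14 reads, p.Ala155Gly had 3 of 9 and the silent p.Thr148Thr 3 of 13. These annotations are for transcript ENSMUST00000108428 only, since the strongest annotation of a gene was kept. Whether the residues belong to the other products of Rps19 was not examined. In Rpl28, the acceptor change c.-8-2A>C had 4 of 25 reads in marrow of animal 136 and 5 of 22 in ear of animal 108, and c.-8-1G>C had 7 of 28 in marrow of animal 136 and 4 of 14 in ear of animal 54. Of the 13 genes named for Diamond-Blackfan anaemia or 5q- syndrome, 3 (Rpl11, Rpl35a and Rps19) had a coding or splice site, and none of the 3 shared sites altered a protein. Rpl5, Rpl10 and Rpl22, which are mutated in human T-cell leukaemia, had no coding or splice site in these lists.

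Of 50 genes for ribosome biogenesis factors, 11 had a coding or splice site in both tissues, with 14 of 36 sites altering the protein (38.9%) in 8 genes, close to the 34.0% of genes outside the ribosomal protein set. These were Bms1, Bop1, Gar1, Las1l, Pdcd11, Polr1b, Rrp12 and Ubtf.

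Marrow and ear of the same animal did not differ at a member site after adjustment. Each site called in both tissues with at least 10 reads in each was tested with a two-sided Fisher exact test on its reads, adjusted by Benjamini-Hochberg over all sites of the animal. Of member sites, 0 of 198, 0 of 169 and 0 of 30 passed an adjusted p of 0.05 in animals 54, 108 and 136, and over whole lists 0.0346%, 0.0327% and 0.0181% did. At an unadjusted p under 0.05 there were 9, 11 and 0 member sites, which is 4.55%, 6.51% and 0%, against 8.41%, 7.43% and 6.22% of all sites. The lowest member p was that of Rps25 c.283+32A>G in animal 108, with 19 of 48 reads in marrow and 33 of 45 in ear (exact p = 0.00161, adjusted p = 0.258).

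The median marrow minus ear difference at pseudogene sites was 0.418, 2.26 and 0.870 points in animals 54, 108 and 136, and at gene sites 1.86, -0.189 and 1.16 points. In animal 108, 4 of 47 pseudogene sites had an unadjusted p under 0.05 by the Fisher test (8.51%, against 7.43% of the whole list). All 4 were higher in marrow. Of the gene sites under that threshold in this animal, 1 was higher and 6 were lower in marrow. Over the whole list 1787 were higher and 1851 lower. The 4 pseudogene sites lay in Rpl36a-ps1, Rpl21-ps7 and Rpl15-ps2, and the adjusted p was 0.398 or more. Sites of the same pseudogene are not independent. For n.265A>G of Rpl36a-ps1, 128 of 289 reads carried the change in marrow and 99 of 299 in ear.

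Over the 3 animals, 11 member sites were listed in all 6 samples, of 4444 sites tested by a Cochran-Mantel-Haenszel test stratified on animal. None of the 11 passed, against 0.0225% of all sites, and 1 had an unadjusted p under 0.05, against 8.06% of all sites. That site was n.495G>A of Rps23-ps, with an adjusted p of 0.572 by this test. Its fraction was 39.7% in the marrow and 59.6% in the ear of animal 54, 46.2 and 35.6% for animal 108, and 35.5 and 45.8% for animal 136, so marrow was lower in 2 animals and higher in 1. The other sites lay in Rpl19-ps1, Rpl15-ps3, Rpl32, Rpl26 and Rps23.

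**Figure D5:**
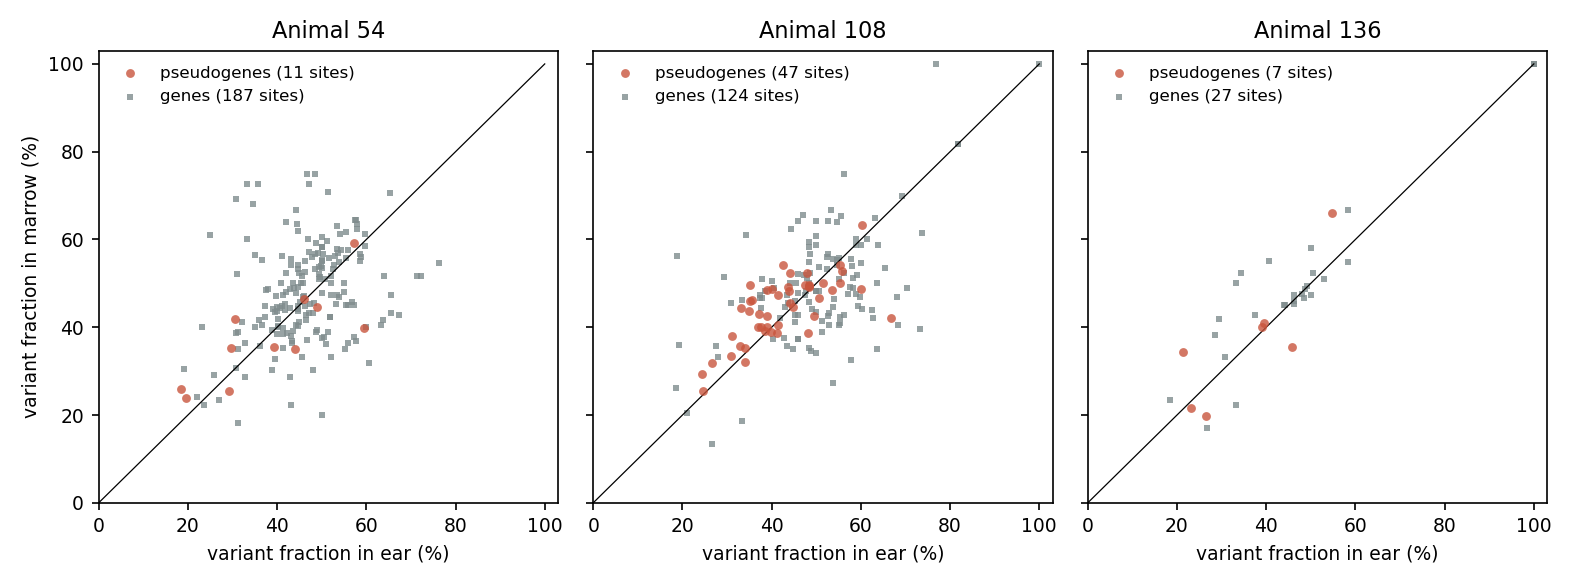
Variant fraction in marrow (vertical) against ear (horizontal), in percent, at every member site called in both tissues, 1 panel per animal; red circles are pseudogene sites, grey squares gene sites and the line marks equality. Points lie on both sides of the line in each animal, and none of the tested sites passed the adjusted threshold.

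Somatic callers, which set marrow against ear, placed 0.161% (VarScan2) and 0.380% (Strelka) of their calls inside genes in members. For scale, the marrow lists of all variants held 230, 269 and 71 sites inside members in animals 54, 108 and 136. Other genes, pseudogenes left out, held 35732, 67844 and 21635 there. The shares were not tested against each other. VarScan2 had 2, 1 and 1 somatic calls inside a member in animals 54, 108 and 136, of 2484 calls inside genes in all, and none was coding. In Rpl19-ps11, n.211G>A had 16 of 57 reads in the marrow and 3 of 44 in the ear of animal 136, with a somatic p of 0.00560 in the authors' deposited table, and n.665T>C had 19 of 69 and 22 of 136 in animal 54. An intron change of Mrpl44 had 9 of 16 and 3 of 16 reads in animal 108. An intron change of Rps28 had 4 of 11 reads in the marrow and 0 of 16 in the ear of animal 54, where 0 of 16 allows a share of up to 20.6% by the exact interval. So the variant base was also read in ear at 3 of the 4 calls.

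Strelka had 10, 7 and 7 calls in members, 24 in 21 genes of 6324 inside genes in all, and 1 of them lay in a pseudogene, Rpl31-ps13. Of 11 coding calls, 9 altered the protein, against 70.6% of coding calls in all genes. In animal 54 these were p.Gly152Trp of Rpl11, p.Cys336* of Rpl3l, a muscle paralogue of Rpl3, and a deletion of Leu33 and Ser34 of Mrpl43. In animal 108 they were p.Gly69Ser of Rpl28 and p.Trp526Leu of the kinase gene Rps6ka5. In animal 136 they were p.Gln65Lys of Rpl12, p.Gln72* of Mrps5, p.Gln63* of Mrps25 and p.Asp201Gly of Mrpl19. The Strelka lists give a quality and no reads. It was 79 for Rpl11 and 62 for Mrpl43, and 15 to 28 for the other 7. Of the 24 calls, 2 were also in the list of all variants of the same marrow (8.33%, against 12.6% of all Strelka calls inside genes), in the 5' UTR of Mrpl40 (6 of 46 reads) and an intron of Mrps36 (4 of 30 reads). No member was called by both callers at the same position.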

How the data were processed

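Exome capture covered 50 Mb, with a mean depth of 100 stated per the labels' protocols, and gave 1 list of all variants per sample and lists of somatic calls per animal. The submitters' processing notes name FastQC, Bowtie2, SAMtools and the builds GRCm38 and mm9. Per the file headers, variants came from SAMtools, VarScan2 and Strelka and were annotated with SnpEff. The lists of all variants hold deposited read counts per allele and a mapping quality (a score). VarScan2 lists hold the authors' read counts, variant fractions in percent and somatic p-values, and Strelka lists a deposited quality score. Caller filters: not given in the sources used here; the lowest raw depth listed was 11 reads. Reads printed here are the high-quality reads of both alleles, which can be fewer.

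The SnpEff fields were split per annotation with Python 3.11.15 and pandas 2.3.3, and sites with at least 1 annotation inside a member transcript were kept. Variant fractions are variant reads over reads of both alleles. A site was taken as protein-altering if its strongest annotation in the member was of HIGH or MODERATE impact, of those with HIGH, MODERATE or LOW. Marrow and ear of an animal are paired by the labels, and deviations from tissue means correlated within animals (0.153, 0.196 and 0.111 across sites in animals 54, 108 and 136). VarScan2 columns were assigned to tissues by their headers, and the assigned column was the nearer at 81.7 to 98.9% of sites shared with the lists. Tests used scipy 1.17.1, were tested on simulated data and adjusted over whole lists. P-values of single sites measure read sampling in 1 pair of samples, not the spread between animals. Intervals are exact (95%) and cover counting error.

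Genes named in the text are those with a protein-altering somatic call or shared altering site, the 10 pseudogenes with most sites, sites with the lowest p, and the anaemia and leukaemia genes. Rpl17-ps5, Rps24-ps3, Rpl3-ps1, Rps12l1, Rpl28 acceptor sites, further pseudogenes of animal 108, promoter sites, gene blocks and silent examples were chosen after their values were seen. Members and lists were chosen with earlier results of these data known. Parent genes and proteins were not compared by sequence here.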

Additional observations from a re-analysis of the deposited data

Results flagged for a closer look

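VarScan2 also marked calls as loss of heterozygosity, which no comparison above uses, and 1 of these lay inside a member. It is an insertion in an intron of Rpl11 in animal 54, at position 136051876 of chromosome 4, with the inserted bases in 12 of 16 reads in marrow (75.0%) and 27 of 63 in ear (42.9%), and a somatic p of 0.0209 in the authors' deposited table. In the list of all variants the same position gave an exact p of 0.0528 and an adjusted p of 0.604 by the two-sided Fisher test.

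The pseudogene minus gene difference of median variant fractions had opposite signs in both tissues of the female animal and in those of the males. It was 6.33 points in marrow and 2.89 in ear of animal 136, a mean of 4.61, against -9.64 and -11.1 in animal 54 and -4.23 and -5.93 in animal 108, a mean of -7.74 over both males. The difference between animals was not tested. At sites with at least 20 reads the opposite sign was gone: the difference in animal 136 was -12.3 points in marrow and -1.09 in ear, and all 6 samples were below 0. Sex and animal cannot be told apart, since animal 136 is the only female.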

How the results depend on the processing

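With animal as replicate block, 1 of 4444 sites of all genes differed between marrow and ear over animals, against 8 with pooled reads and no replicate block. It was 5 to 12 when an animal was left out, among 5231 to 8442 sites tested, since fewer samples then had to list a site. Sites that differed within an animal numbered 29 over whole lists and 13 to 27 when an animal was left out, which leaves fewer lists. Member sites past the threshold stayed at 0 under each of these settings and at a depth of at least 20, with lowest adjusted p of 0.217 to 0.947.

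Counting upstream and downstream annotations moved the pseudogene share of member sites to 35.2% (16.2% inside transcripts), the mapping quality difference to -5.50, the depth ratio to 1.05 and the difference in the percent of sites at a fraction of at least 90% to 4.48 points (2.42). With exonic sites of genes only, added after the data were seen, the share was 49.2%. At a mapping quality of at least 30 the quality difference was -7.17 and the 90% difference 6.54, and at a depth of at least 20 the 90% difference was 0. Member sites per sample averaged 395, and 204 inside transcripts. VarScan2 calls per animal averaged 1.33, and 0.333 at a somatic p under 0.01. Strelka calls averaged 8, with 6 left without Rps6k and Rps19bp1 and 1.67 at a quality of at least 30. The causes were not tested. The pseudogene minus gene difference in sites called in both tissues, 2.32 points and smaller than its SD, changed sign to -2.52 at a depth of at least 20, -10.3 at a mapping quality of at least 30, -9.86 with upstream and downstream annotations, -4.35 with exonic sites and as low as -1.64 (to 9.66) without an animal. The fraction difference, -3.62 points, kept its sign, from -8.36 at a depth of at least 20 to -0.237 without animal 54. At a mapping quality of at least 30 it was -0.728 points ± 8.96 (SD, n = 3), small beside the spread between animals.

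Depth, a median of 18 to 31 reads per site, limits the size of a difference between tissues that a single-site test can detect.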

Other observations

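Rps12l1, whose name lacks -ps although its transcript is annotated as a pseudogene, and which is counted with the genes, had 1 site, n.496G>A on chromosome 7, that was listed in ear of all 3 animals and in no marrow. It had 72 of 223 reads in ear of animal 54, 32 of 118 in animal 108 and 34 of 118 in animal 136, at a mapping quality of 33 to 36. Over all 177834 sites, 175 had this pattern and 137 had the reverse one, in 3 marrows and no ear, and no member was among the 137. A list does not give the reads of a sample in which a site was not called, so the marrow fraction is not known.

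Calls of members in a single sample were shallow: in genes they had a median of 14 reads and a median fraction of 25%, against 52 reads and 48.1% at sites called in both tissues. For pseudogenes the medians were 17.5 reads and 37.1% in a single sample, against 139 reads and 41.7% in both tissues.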
